A study of Mus musculus with 6 samples.

Results

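The proteasome subunits and their regulators were followed across CD11c+ dendritic cells (DCs) of spleen and lymph node. Members were the gene symbols of the array annotation that begin with Psma, Psmb, Psmc, Psmd, Psme, Psmf or Psmg and a number, without the immunoproteasome genes Psmb8, Psmb9 and Psmb10 and without pseudogenes. This gave 47 genes, of which 45 had a probe set of their own among the 12393 genes measured. Psme2 and Psme2b shared a single probe set that names both, so they are not analysed here. No filter on signal was applied, and all 45 entered the test.

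The CD11c+ DCs were sorted by flow cytometry from BALB/c mice, an inbred laboratory strain, and their RNA, extracted with carrier RNA and amplified from small amounts, was hybridised to Affymetrix arrays. Each organ was represented by 3 arrays, numbered 1 to 3. The labels give no age, sex, treatment or genetic change, and nothing on separate animals or pools, so any p-value reflects array-to-array spread alone, possibly a technical one. Values are log2 intensity. Differences were taken as the spleen mean less the lymph node mean, by the labels, with its standard error (SE) from limma and a p-value adjusted over all genes by the Benjamini-Hochberg method, at a threshold of 0.05.

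The proteasome is the protease of cytosol and nucleus that degrades proteins tagged with ubiquitin. Its core is a barrel of stacked rings, the outer ones built of alpha subunits, which gate the entry, and the inner ones of beta subunits, some of which carry the active sites. A regulatory particle caps the barrel: its base holds a ring of ATPases that unfold the substrate, and its lid holds the deubiquitinase that removes the ubiquitin chain. In antigen-presenting cells such as DCs, the peptides it releases are a main source for MHC class I molecules, and alternative caps of the PA28 family and immune-type active sites change which peptides are made.

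The arrays were checked against their labels first. Markers of conventional DCs had mean log2 intensities of 9.69 to 9.84 in the lymph node arrays and 9.08 to 9.64 in the spleen arrays, and 1 of 8, Itgax, passed the threshold, lower in spleen. The migratory DC genes, textbook markers of DCs that have reached lymph nodes from tissues, passed in 5 of 5 cases with higher levels in the arrays labelled spleen (6.66 to 7.10 against 9.32 to 9.79 on average), which goes against those labels. Plasmacytoid DC markers passed in 3 of 6 cases, all higher in spleen (5.04 to 6.22 against 7.07 to 8.55). T cell markers passed in 1 of 5, Cd28, higher in spleen by 4.07 (list averages 3.80 to 5.54 against 5.16 to 6.86). Cd3d, Cd3e and Cd3g differed by 0.74, 0.93 and 1.47 and Cd5 by -0.41, all with overlapping groups. Neutrophil markers passed in 1 of 5, lower in spleen (4.44 to 5.93 against 3.20 to 3.98). Over all genes, 3.40% passed in either direction. B cell, NK cell, macrophage and cell cycle markers had 0 of 4, 0 of 4, 0 of 5 and 0 of 5 past the threshold, with 1 gene, the macrophage marker Adgre1, at an unadjusted p under 0.05. The bacterial poly-A control probe sets averaged 7.39 to 7.96 in the lymph node arrays and 8.41 to 9.06 in the spleen arrays. The 3′ minus 5′ difference of the Gapdh control, which grows as RNA or its copies lose their 5′ ends, was 2.60 to 2.79 in lymph node and 3.14 to 3.44 in spleen, and the groups did not overlap in either measure. The same difference of the actin control did overlap, at -0.35 to -0.17 in lymph node and -0.33 to -0.18 in spleen, so the controls did not share a shift. In RNA from a mixed sort, fewer cells of a type and less RNA per cell cannot be told apart. The part of these marker, control and RNA quality values in the proteasome results was not tested, apart from a fit that included the poly-A level.

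None of the 45 proteasome members passed the threshold in limma, against 3.40% of all 12393 genes. At an unadjusted p under 0.05, 4 members were higher in spleen (Psmd11, Psmd12, Psmc6 and Psmd2), where 9.30% of all genes were, and 2 were lower (Psmd13 and Psma8), where 9.75% were. The differences ran from -0.78 for Psma8 to 0.74 for Psmd11, so 0 of 45 reached 2-fold, which 6.02% of all genes did. Their median was -0.017, beside -0.0053 for all genes, and the median size without sign was 0.18 beside 0.23. With 3 arrays per organ, the 95% confidence interval of the difference lay within 2-fold either way for 40 of the 45 members (88.9%), and for 74.1% of all genes. Psmd11, Psmd13, Psma8, Psmg2 and Psmf1 were the members whose interval reached beyond 2-fold.

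**Figure D1:**
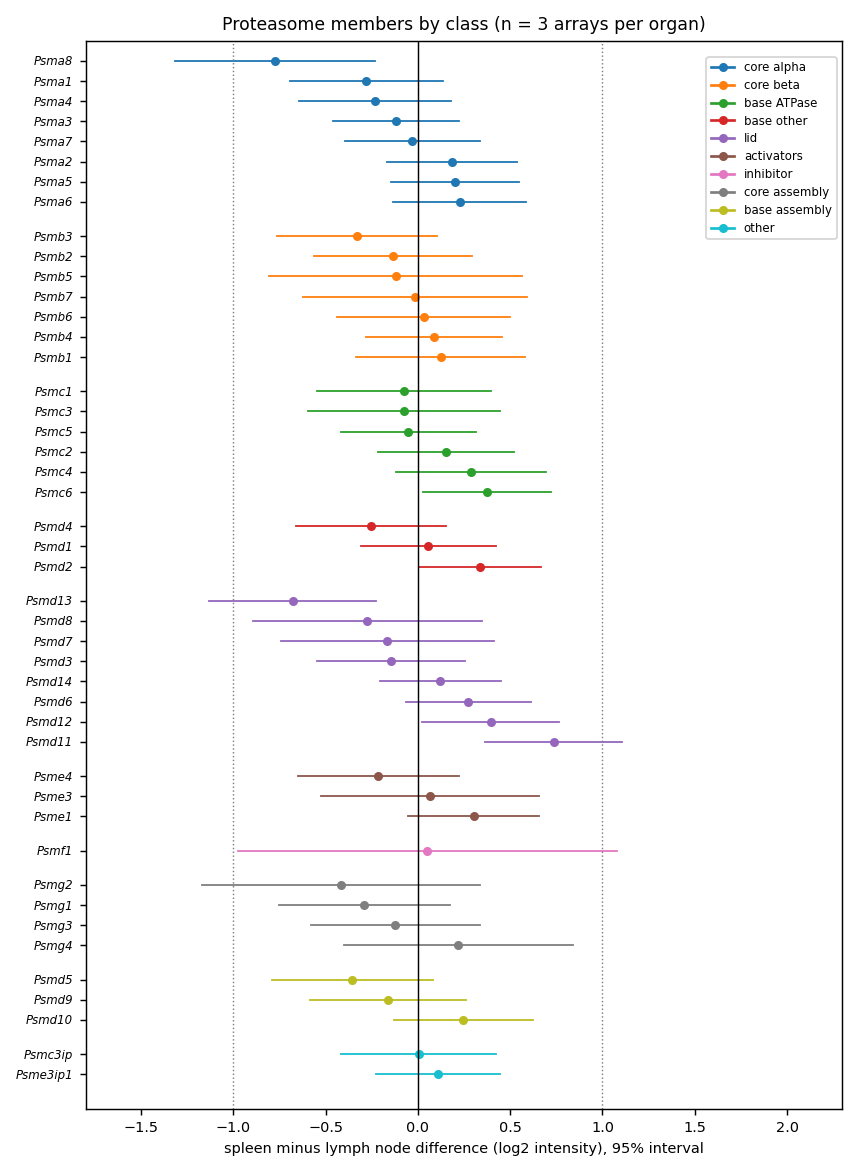
Spleen minus lymph node difference in log2 intensity (x axis) of the 45 members (rows), coloured by class, with 95% confidence intervals from limma and dotted lines at 2-fold either way. The points lie between -0.78 and 0.74, and each class other than the single inhibitor and the pair of other genes has members on both sides of 0.

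Groups that do not overlap, with every spleen array above or below every lymph node array, were seen for 10 members higher in spleen (22.2%) and 4 lower (8.89%). Over all genes these shares were 11.8% and 12.7%. Over genes above the median signal, where 43 of the 45 members lay, they were 15.6% and 17.9%. The 10 were Psma2, Psma5, Psmc6, Psmd2, Psmd6, Psmd11, Psmd12, Psmd14, Psme1 and Psme3ip1, and the 4 were Psma1, Psma8, Psmd5 and Psmd13. In 6 of the 10 the unadjusted p was above 0.05, because the gap between the groups was small against the spread that limma estimates.

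The lid held the largest difference towards spleen and, after the weakly measured Psma8, the largest towards lymph node. Psmd11, a lid subunit that clamps lid and base together, measured 7.96, 7.99 and 8.20 in the lymph node arrays and 8.76, 8.68 and 8.92 in the spleen arrays. Every spleen array was above every lymph node array, by a difference of 0.74 ± 0.16 (SE; 1.67-fold, 95% interval 0.37 to 1.11 on the log2 scale), which narrowly missed the threshold (limma adjusted p = 0.0523, 0.0320 to 0.930 over 17 other settings, 5 of which called it). Psmd13, another lid subunit, measured 6.93, 6.98 and 6.98 in lymph node and 6.05, 6.66 and 6.14 in spleen. All 3 spleen arrays were below, array 2 the least so, and the difference was -0.68 ± 0.20 (SE, adjusted p = 0.109). It passed in 1 setting only, without spleen array 2 (-0.86, adjusted p = 0.0493, with a range of 0.0493 to 0.977 over 16 settings). With the poly-A level in the fit, the differences were 0.40 ± 0.37 (SE) for Psmd11 and -0.13 ± 0.42 for Psmd13. The poly-A level did not overlap between organs, so that fit separates it poorly from organ, and the SEs were larger.

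The other 6 lid subunits lay between these. Psmd12 measured 8.13, 8.07 and 8.01 in lymph node and 8.66, 8.32 and 8.41 in spleen, a difference of 0.39 ± 0.16 (SE, adjusted p = 0.238) with no overlap. Psmd6 measured 8.21, 8.23 and 8.28 against 8.60, 8.51 and 8.43 (0.27 ± 0.15, adjusted p = 0.369), also with no overlap. Psmd14, the deubiquitinase of the lid, had the tightest arrays: 9.74, 9.72 and 9.73 in lymph node and 9.86, 9.86 and 9.83 in spleen. Its groups were separate, yet the difference was only 0.12 ± 0.14 (SE, adjusted p = 0.714). The SE here draws on limma's shared estimate of the spread as well as on these 6 values. Psmd3, Psmd7 and Psmd8, the last 3 lid subunits, differed by -0.15, -0.17 and -0.28 with overlapping groups. Psmd8 was low in both arrays numbered 3, at 7.21 in lymph node and 7.19 in spleen, where its other 4 arrays lay between 7.61 and 8.08. The 8 lid subunits thus split into 4 higher and 4 lower, with a median of -0.013. That median was 0.083 without spleen array 1, 0.085 with the mean of all probe sets, -0.17 without suffixed probe sets and 0.28 with the poly-A level in the fit.

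**Figure D2:**
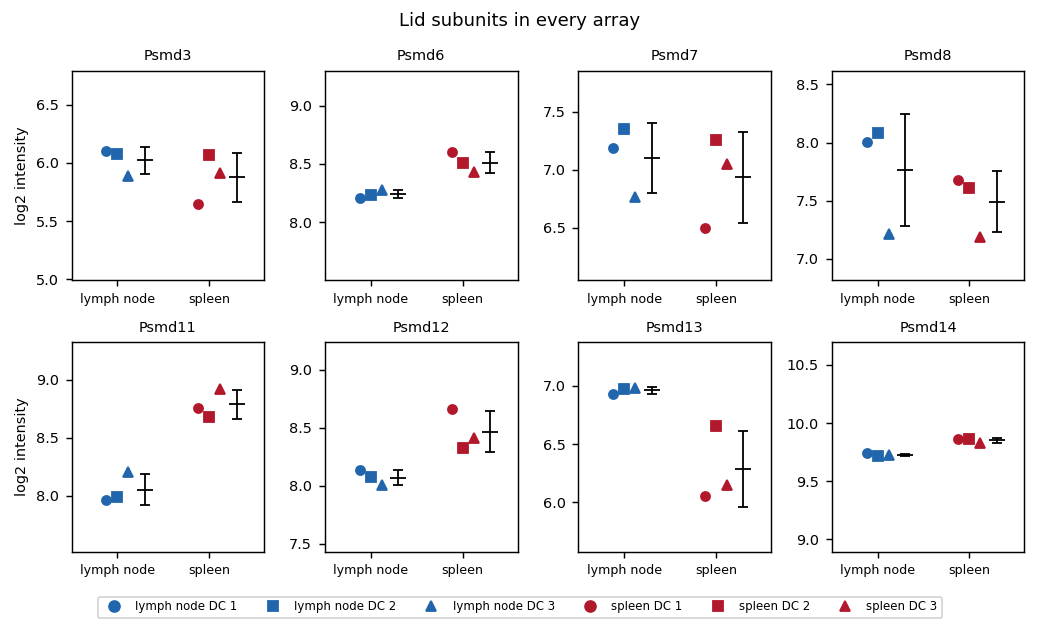
Log2 intensity (y axis, a separate range for each gene but the same span) of the 8 lid subunits in the 3 lymph node and 3 spleen arrays, with the mean and SD of each organ as bars. Psmd6, Psmd11, Psmd12 and Psmd14 have every spleen array above every lymph node array, Psmd13 has every one below, and Psmd3, Psmd7 and Psmd8 overlap.

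Psmd11 was measured by 6 probe sets, and they disagreed. The brightest, used above, differed by 0.74, and the others, in falling order of signal, by 0.02, -0.25, 0.56, 0.25 and -0.03. Only the brightest had groups that did not overlap. Averaged over the probe sets of the gene, the difference was 0.21 (adjusted p = 0.484), and without probe sets whose suffix marks a design that can match several transcripts it was -0.25 (adjusted p = 0.629), the opposite direction. The direction of Psmd11 thus differed between its probe sets. The 2 probe sets of Psmd13 had 1 sign, at -0.68 and -0.15, and those of Psmd6 likewise, at 0.27 and 0.45, both without overlap.

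**Figure D3:**
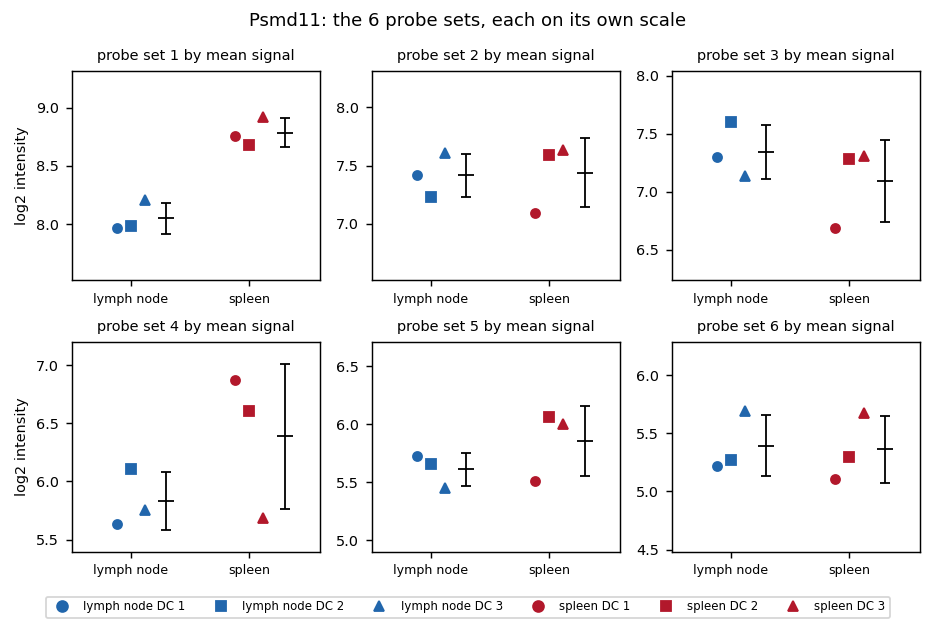
Log2 intensity (y axis) of the 6 Psmd11 probe sets, ordered by mean signal, in the 3 lymph node and 3 spleen arrays, with mean and SD per organ as bars. In the first the spleen arrays stand 0.74 above the lymph node arrays on average, and in the other 5 the organs overlap.

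The promoters of Psmd11 and Psmd13 are shown because these lid genes differed most by their brightest probe sets, which had opposite signs. Neither gene passed the threshold, and the sign of Psmd11 depended on the probe set. Each line gives the 250 bases before the RefSeq start on the gene's strand, 5′ to 3′ (build GRCm38.p6), with capitals for matches to any of the 5 motifs named further on. The stretch for Psmd11 is chr11:80428365-80428614 (plus strand) and that for Psmd13 is chr7:140882144-140882393 (plus strand).
Psmd11: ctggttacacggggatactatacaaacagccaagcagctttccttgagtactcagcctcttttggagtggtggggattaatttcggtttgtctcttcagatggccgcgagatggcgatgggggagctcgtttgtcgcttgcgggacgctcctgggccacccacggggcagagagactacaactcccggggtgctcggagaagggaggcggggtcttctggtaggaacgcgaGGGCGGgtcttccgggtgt
Psmd13: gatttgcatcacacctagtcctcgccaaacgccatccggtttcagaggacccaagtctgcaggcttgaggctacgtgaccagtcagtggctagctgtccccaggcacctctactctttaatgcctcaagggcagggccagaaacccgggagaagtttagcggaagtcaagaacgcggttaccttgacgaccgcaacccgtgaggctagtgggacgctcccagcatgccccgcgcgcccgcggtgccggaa
Psmd11 has a single match, a GC box, and the stretch shown for Psmd13 has none.

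In the base of the regulatory particle, the ATPase ring had a median difference of 0.050 over 6 genes and the 3 other base subunits one of 0.057. Psmc6, an ATPase of the unfolding ring, measured 8.70, 8.71 and 8.76 in lymph node and 8.97, 9.09 and 9.22 in spleen. Its groups did not overlap and the difference was 0.37 ± 0.15 (SE, adjusted p = 0.232). Of its 3 probe sets, a second, dimmer one gave 0.58, also without overlap, and the third, at a mean of 3.57, gave -0.19. Psmc4 and Psmc2, 2 more ATPases, differed by 0.29 ± 0.18 (SE, adjusted p = 0.441) and 0.15 ± 0.16 (adjusted p = 0.680), with overlap, and Psmc1, Psmc3 and Psmc5 lay between -0.077 and -0.052.

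Psmd2, a scaffold subunit of the base that docks ubiquitin-like shuttle proteins, measured 8.25, 8.28 and 8.35 in lymph node and 8.62, 8.67 and 8.60 in spleen. Replicates of both organs were tight (SD 0.051 and 0.037, n = 3 each), the groups were separate, and the difference of 0.34 ± 0.14 (SE) did not pass (adjusted p = 0.255). Psmd1, the other large scaffold, differed by 0.057 ± 0.16 (adjusted p = 0.895). Psmd4, a ubiquitin receptor of the particle, measured 7.65, 7.81 and 7.44 against 7.18, 7.48 and 7.49, a difference of -0.25 ± 0.18 (adjusted p = 0.502). All 3 of its probe sets had a negative difference (-0.25, -0.42 and -0.26), and only the second had groups without overlap.

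The 15 core genes had a median difference of -0.031. Among the alpha subunits of the outer rings, Psma8, the testis form, had the largest difference of any member, at 3.29, 4.07 and 4.01 in lymph node and 2.89, 3.14 and 3.02 in spleen (-0.78 ± 0.23 SE, adjusted p = 0.120). Its groups did not overlap, but its signal was low, at percentile 24.3 of all genes. Psma1 measured 8.58, 8.59 and 8.54 against 8.42, 8.46 and 7.99 (-0.28 ± 0.18, adjusted p = 0.460), with spleen array 3 the farthest below. Psma4 differed by -0.23 ± 0.18 (adjusted p = 0.550), with overlap, and Psma3 and Psma7 by -0.12 and -0.031. Psma2, Psma5 and Psma6 were on the other side, at 0.18, 0.20 and 0.23, the first 2 without overlap. Without Psma8, the alpha subunits thus stayed within 0.28 of 0.

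The 7 beta subunits of the inner rings had a median of -0.017, and the organs overlapped for each of them. Psmb5, which carries the chymotrypsin-like active site, measured 7.11, 6.98 and 6.42 in lymph node and 6.13, 6.93 and 7.08 in spleen (-0.12 ± 0.30 SE, adjusted p = 0.881). The low arrays were lymph node 3 and spleen 1, so the spread within an organ exceeded the difference between organs. Psmb6, with the caspase-like site, measured 8.48, 8.57 and 7.97 against 8.33, 8.53 and 8.26 (0.032 ± 0.20, adjusted p = 0.956). Psmb7, with the trypsin-like site, measured 8.60, 8.91 and 8.51 against 8.96, 8.91 and 8.09 (-0.017 ± 0.26, adjusted p = 0.981), with spleen array 3 the lowest. Intervals at 95% were -0.81 to 0.57 for Psmb5, -0.44 to 0.50 for Psmb6 and -0.62 to 0.59 for Psmb7, which bound any difference below 2-fold. Of the beta subunits without an active site, Psmb3 differed most (-0.33 ± 0.19, adjusted p = 0.399), with a second probe set at -0.53 and no overlap there, followed by Psmb2 (-0.13 ± 0.18, adjusted p = 0.764) and Psmb1 (0.12 ± 0.20, adjusted p = 0.803). Psmb4 differed by 0.087 ± 0.16 (adjusted p = 0.834), and its second probe set by -0.29.

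The immune counterparts of these sites, which replace them in the immunoproteasome, did not pass either. Psmb8, the counterpart of Psmb5, differed by 0.13 ± 0.19 (SE, adjusted p = 0.776), Psmb9, that of Psmb6, by -0.22 ± 0.25 (adjusted p = 0.712) and Psmb10, that of Psmb7, by -0.00033 ± 0.18 (adjusted p = 0.999). Psmb9 had its lowest value, 10.77, in spleen array 1, where Psmb5 was lowest too.

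**Figure D4:**
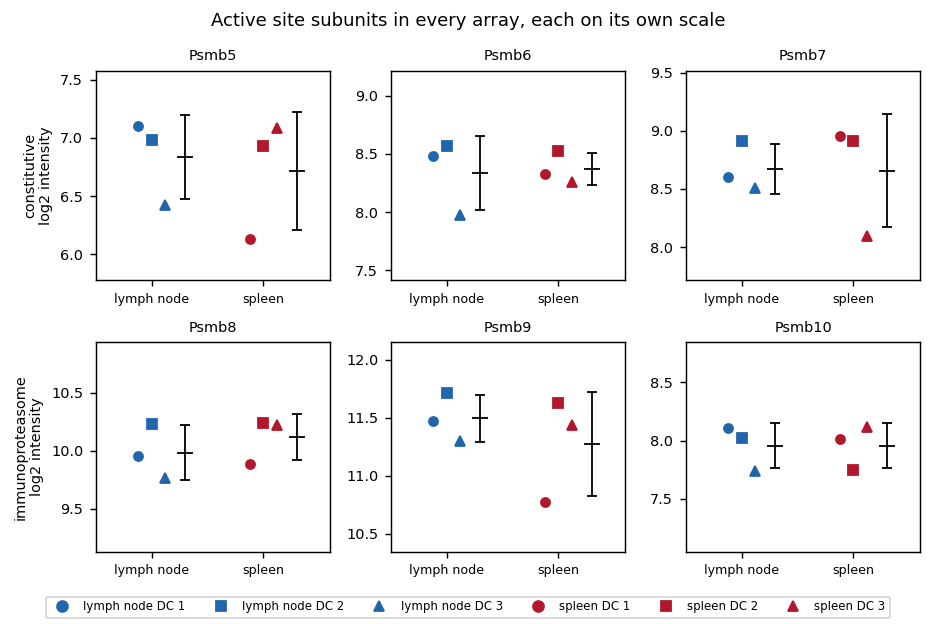
Log2 intensity (y axis, a separate range for each gene) of the 3 constitutive active site subunits, in the upper row, above their immunoproteasome counterparts, in the lower row, in the 3 lymph node and 3 spleen arrays, with mean and SD per organ as bars. In all 6 panels the arrays of the organs overlap.

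Of the activators, which open the core as alternative caps, Psme1 (PA28 alpha, induced by interferon) measured 11.00, 11.08 and 11.01 in lymph node and 11.17, 11.41 and 11.41 in spleen. The spleen arrays were all above, by 0.30 ± 0.15 (SE; 1.23-fold, adjusted p = 0.345). Psme3 (PA28 gamma, the nuclear form) measured 9.88, 10.08 and 9.67 against 10.45, 9.53 and 9.85 (0.067 ± 0.26, adjusted p = 0.925), with the highest and the lowest value both in spleen. A dimmer probe set of Psme3, at a mean of 8.60, was tighter in spleen (8.66, 8.53 and 8.52) and differed by -0.066, with overlap. The dimmest, at a mean of 3.14, differed by -0.42, also with overlap. Psme4 (PA200, a large nuclear cap) measured 7.86, 7.63 and 8.02 against 7.74, 7.77 and 7.36 (-0.21 ± 0.19, adjusted p = 0.614). The median of the 3 activators, 0.067, had no stable direction: it was -0.19 without spleen array 1, -0.035 without lymph node array 3, 0.17 without lymph node array 2, 0.26 without spleen array 2, 0.0019 with array weights, -0.011 with the poly-A level in the fit and -0.14 with the mean of all probe sets. Psmf1 (PI31), named as a proteasome inhibitor, had the widest spread of the members in spleen: 6.24, 6.21 and 6.56 in lymph node and 6.48, 5.36 and 7.33 in spleen. Its mean difference of 0.051 ± 0.44 (SE, adjusted p = 0.968) leaves a 95% interval of -0.98 to 1.08, so this probe set did not exclude a change of about 2-fold. The dimmer probe sets of Psmf1, in falling order of signal, differed by -0.12 ± 0.21, -0.11 ± 0.37 and 0.050 ± 0.38 (SE), all with overlap.

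Assembly chaperones, which build the core and the base and then leave, had median differences of -0.21 over the 4 core chaperones and -0.16 over the 3 base chaperones. The first was -0.011 without spleen array 1 and 0.15 with the poly-A level in the fit. The second was -0.018 without lymph node array 2 and 0.098 with the mean of all probe sets. Psmg2 measured 6.07, 5.87 and 5.69 in lymph node and 4.67, 5.84 and 5.86 in spleen (-0.42 ± 0.33 SE, adjusted p = 0.559). That difference rests on spleen array 1, and without it was -0.024. Psmg1 differed by -0.29 ± 0.20 (adjusted p = 0.502), Psmg4 by 0.22 ± 0.27 (adjusted p = 0.732) and Psmg3 by -0.12. In the base, Psmd5 measured 7.67, 7.77 and 8.06 against 7.23, 7.58 and 7.63 (-0.36 ± 0.19, adjusted p = 0.365), without overlap, while Psmd10, also called gankyrin, differed by 0.25 ± 0.16 (adjusted p = 0.478) and Psmd9 by -0.16 ± 0.18 (adjusted p = 0.708). Psme3ip1, a partner of PA28 gamma, differed by 0.11 ± 0.14 (adjusted p = 0.754). Psmc3ip, a meiotic recombination factor that entered the members by its symbol, differed by 0.0048 ± 0.18 (adjusted p = 0.993).

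The members also varied within an organ. Their median SD over the 3 arrays was 0.14 in lymph node and 0.18 in spleen, beside 0.19 and 0.26 for all genes, and the spleen SD was the larger one for 31 of 45 members (68.9%) and for 66.1% of all genes. Lymph node array 2 was the highest of the 6 for 14 of 45 members (31.1%, against 15.5% of all genes) and spleen array 1 the lowest for 15 (33.3%, against 23.0%). Within the core, lymph node array 2 was the highest for 8 of 15 genes, and the lowest value fell in lymph node array 3 for 6, in spleen array 1 for 5 and in spleen array 3 for 4. The beta subunits had median deviations from the gene's mean of 0.025, 0.23 and -0.16 in lymph node arrays 1 to 3. In spleen arrays 1 to 3 these were -0.10, 0.17 and -0.079. For the alpha subunits, array 2 stood at 0.11 in lymph node and 0.071 in spleen. Within each organ, 5 of the 7 beta subunits were highest in the array numbered 2. Of the 8 alpha subunits, 8 were highest there in lymph node and 6 in spleen. The share of all genes for these counts was not computed.

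**Figure D5:**
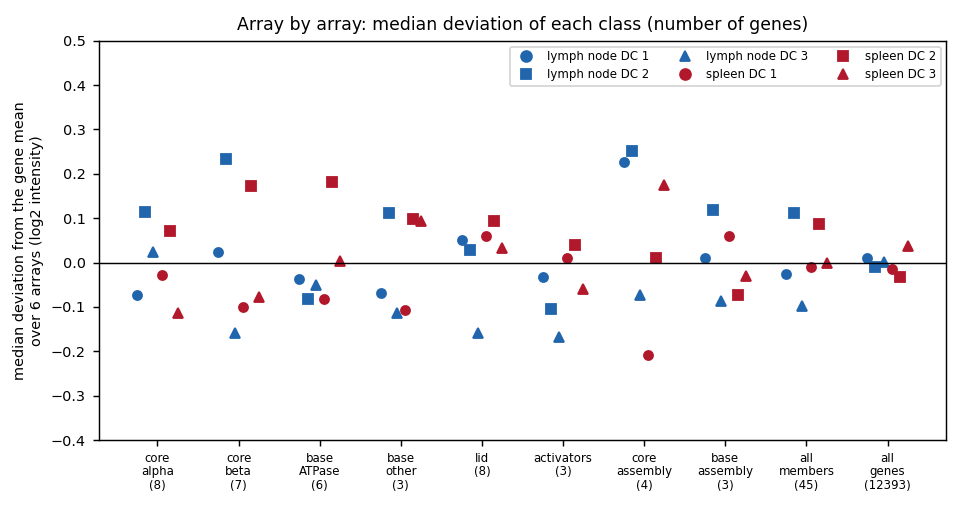
Median deviation of each class from the gene's mean over the 6 arrays (y axis, log2 intensity) for each array, with the number of genes in parentheses and marker shapes for array numbers. For the beta subunits, lymph node array 2 (0.23) and spleen array 2 (0.17) are high, and the other 4 arrays lie between -0.16 and 0.025. The medians over all genes stay within 0.037 of 0, where quantile normalization and the many genes hold them. They are therefore no yardstick for the spread of a small class.

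Of the 45 members, 21 had more than 1 probe set, at most 6, and 82 probe sets in all. None of the 82 passed at the level of probe sets (limma, adjusted over 22626), where 2.78% of all probe sets did; 12 had an unadjusted p under 0.05, against 18.4% of all. All probe sets had 1 sign for 8 of the 21 members: Psma5, Psmb1, Psmb3, Psmc2, Psmd4, Psmd6, Psmd13 and Psmg2. The other 13, Psmd11 among them, had both signs, in part through probe sets of low signal.

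Genes that act with the proteasome were counted from separate lists. Of 21 measured partners (assembly factors, deubiquitinases, shuttles, the segregase Vcp and its cofactors, and regulators) 0 passed in limma, and 2 were at an unadjusted p under 0.05, both higher in spleen (9.52%, against 9.30% of all genes). Groups without overlap were seen for 7 partners higher in spleen (33.3%, against 11.8% of all genes) and 1 lower (4.76%, against 12.7%), and the median difference was 0.16. Nploc4, a cofactor with which Vcp extracts ubiquitinated proteins, measured 9.06, 8.98 and 9.15 in lymph node and 9.55, 9.59 and 9.92 in spleen (0.62 ± 0.17 SE, adjusted p = 0.0929). Rad23b, a shuttle that carries ubiquitinated proteins to the proteasome, measured 8.51, 8.73 and 8.24 against 9.15, 8.92 and 8.83 (0.47 ± 0.19, adjusted p = 0.220). Both had groups without overlap. Of 9 measured genes that trim, carry or load peptides for MHC class I, 0 passed and the median was -0.14. At an unadjusted p under 0.05, 1 was lower (11.1%, against 9.75% of all genes), the peptidase gene Nrd1 (-0.35 ± 0.14, adjusted p = 0.238). Without overlap, 1 was higher and 1 lower (11.1% each), near the 11.8% and 12.7% of all genes. Tapbp, the tapasin gene of the loading complex, differed by 0.32 ± 0.16 (adjusted p = 0.316). The ubiquitin genes and the E1 enzymes had no probe set of their own in the annotation used and are not analysed here.

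Promoter windows of 300 bases, from 250 before to 50 after the RefSeq start, were found for 37 of the 45 members (40 windows), and 5 motifs were searched on both strands. TGACNNNGC, the core of the antioxidant response element that NRF1 (Nfe2l1), the factor known for inducing proteasome genes, binds with its partners, was in 15.0% of the member windows and 12.4% of all 32851 windows. The GC box GGGCGG was in 55.0% against 35.7%, the CCAAT box (CCAAT) in 35.0% against 37.4%, the TATA box (TATAAA) in 7.50% against 13.6% and GAAANNGAA, a core of the interferon response element, in 17.5% against 8.56%. None of these motifs contains another. The member windows were richer in G and C (median 59.0% against 52.7%) and held a median of 20 CG dinucleotides against 7. These shares are descriptions of letters and not of binding.

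The 6 members with TGACNNNGC are shown, since it is the element by which proteasome genes are known to be induced together. The core is in capitals with up to 10 bases on each side, 5′ to 3′ along the strand that carries it (GRCm38.p6): Psmb5 at chr14:54618024-54618052 (minus strand), Psmb6 at chr11:70525338-70525366 (plus), Psmc6 at chr14:45329587-45329615 (minus), Psmd12 at chr11:107479278-107479299 (minus), Psmd9 at chr5:123228149-123228177 (plus) and Psme4 at chr11:30771758-30771786 (minus).
Psmb5: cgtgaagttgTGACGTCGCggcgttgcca
Psmb6: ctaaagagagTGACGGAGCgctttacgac
Psmc6: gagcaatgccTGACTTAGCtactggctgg
Psmd12: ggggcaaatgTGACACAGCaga
Psmd9: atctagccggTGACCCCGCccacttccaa
Psme4: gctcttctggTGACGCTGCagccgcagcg
Their differences were -0.12, 0.032, 0.37, 0.39, -0.16 and -0.21 in that order, on both sides of 0, and none passed. Nfe2l1 itself, named after its values were seen, differed by -0.22 ± 0.23 (SE, adjusted p = 0.676). Nfe2l2, of the same partner list and also named after its values were seen, went the other way. It differed by 0.53 ± 0.23 (SE, adjusted p = 0.273), with every spleen array above every lymph node array.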

How the data were processed

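Groups and replicate numbers were taken from the sample titles. The deposited intensity values are probe set summaries on a linear scale; the submitters' processing notes name RMA (a background correction, quantile normalization and summary of probes) and limma, with versions and settings not given in the sources used here. Values were transformed to log2. Of 22690 probe sets, 64 were controls and 20380 others had 1 symbol; 20351 of these matched RefSeq (GRCm38.p6) by Entrez identifier, which changed 0 symbols. Of a gene's probe sets, the one of highest mean signal across the 6 arrays was used. Organs were compared in R 4.3.3 with limma 3.58.1 (lmFit, eBayes), two-sided, with Benjamini-Hochberg adjustment over 12393 genes. The functions were tested on simulated data. The number of arrays limits the precision.

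Members and lists were chosen with earlier results of these data known. Named were members past the threshold, the 3 largest differences per class, 11 fixed members (Psmb5, Psmb6, Psmb7, Psme1, Psme2, Psme3, Psme4, Psmf1, Psmd4, Psmd14, Psmg1), the immunoproteasome genes, and in other lists the 2 smallest adjusted p; other members appear by value to account for all. Pearson correlations of log2 intensity over probe sets were 0.982 to 0.991 among lymph node arrays, 0.967 to 0.978 among spleen arrays and 0.952 to 0.972 between them. Alternatives were array weights, a replicate block, eBayes with trend and robust, a filter at the median level, median centring, quantile normalization again, the mean of all probe sets, no suffixed probe sets, log2 of the value plus 16, the poly-A level as a covariate, each array left out and a threshold of 0.01.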

Additional observations from a re-analysis of the deposited data

How the results depend on the processing

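No member was called, in either direction, in 11 of 17 settings. Among these 11, the threshold of 0.01 reuses the main fit, where none passed 0.05, so it could not call a member. The poly-A fit called 0 genes of any kind, so its lack of member calls says nothing about the members. Of the members, 1 was higher, Psmd11, with median centring, the filter at the median level, trend and robust, array weights, and log2 of the value plus 16 (adjusted p from 0.0320 to 0.0453). Members lower ranged from 0 to 1 with an array left out. Psmd11 turned to -0.25 without suffixed probe sets; a value within 1 SE of 0 was given no direction. Genes higher in spleen, 251, came to 425 and genes lower, 170, to 339 with array weights, lower to 267 with the filter, and to 44 and 19 at a threshold of 0.01. With an array left out they ranged from 33 to 296 and from 14 to 179, lowest without lymph node array 2; without lymph node array 1 they were 41 and 15, without spleen array 1 90 and 40, and without lymph node array 3 104 were lower. After adding the poly-A covariate they were 0 and 0 in limma (701 genes, 1 a member, at an unadjusted p under 0.05), with 3 residual degrees of freedom. That fit moved class medians to 0.27 (all members), 0.16 (core), 0.31 (base), 0.29 (base and lid), 0.11 (core alpha), 0.45 (core beta), 0.33 (base ATPase), 0.28 (lid), -0.011 (activators), -1.85 (inhibitor), 0.15 (core assembly), -0.38 (base assembly) and 0.22 (other); the cause was not tested. Without suffixed probe sets medians were -0.073 (base and lid), -0.063 (base ATPase), 0.20 (base other), -0.17 (lid) and -0.26 (base assembly). The mean of all probe sets gave 0.085 (lid), -0.14 (activators) and 0.098 (base assembly), and array weights 0.0019 (activators). With an array left out, medians ranged from 0.0070 to 0.12 (base and lid), -0.062 to 0.083 (lid), -0.19 to 0.26 (activators), -0.26 to -0.011 (core assembly) and -0.24 to -0.018 (base assembly). Same-numbered arrays deviated with correlations of 0.022, 0.24 and 0.16, and lymph node array 1 went best with spleen array 2, so numbers were not taken as pairs; with the replicate block 323 genes were higher, 196 lower and 0 members called (Psmd11 adjusted p = 0.0654). No setting called a gene of the pathway lists.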
